A study of Mus musculus with 7 samples.

Results

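The genes described here are 10 genes of milk protein synthesis and of its hormonal control, read in follicular dendritic cells (FDCs) from lymph nodes. They were chosen by symbol: the caseins Csn2, Csn1s1, Csn1s2a and Csn3, the whey protein genes Wap and Lalba, the prolactin receptor gene Prlr, the transcription factor genes Stat5a and Stat5b, and Elf5. The deposited table of 21176 genes held rows for 6 of the 10, and Csn1s1, Csn1s2a, Wap and Lalba, which had no row, were not analysed here. Of the 6, 3 (Csn2, Stat5a and Stat5b) reached a normalised value of 1 in at least 3 samples, the level required for testing. The group was put together because Csn2 had shown the largest rise in the comparison of genotypes, so the members' own differences between genotypes are given as descriptions, without p-values.

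FDCs are stromal cells that display antigen to B cells inside lymphoid follicles. They were isolated by flow sorting out of the popliteal lymph nodes of male mice, 8 to 12 weeks old and not immunized. The groups were wild type (WT, n = 4 samples) and knockouts of Ngfr, which encodes the nerve growth factor receptor p75 (Ngfr KO, n = 3 samples), and nothing else was given to either group per the labels. Every sample pooled lymph nodes of several animals, and the knockout allele and the cells in which it acts are not given in the sources used here. A normalised value is a read count scaled by the authors, and a value of 1 stood for 230 to 295 reads.

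In the mammary gland, prolactin binds its receptor on epithelial cells, the kinase JAK2 that sits on the receptor is activated, and it phosphorylates STAT5A and STAT5B. The STAT5 proteins enter the nucleus and bind the promoters of the casein genes and of Wap together with the glucocorticoid receptor and factors of the C/EBP and NFI families, while ELF5 drives the alveolar cell fate. Beta-casein, the product of Csn2, is a main protein of mouse milk.

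Libraries held 17244925 to 18873542 reads in WT and 20741770 to 21538400 in Ngfr KO, so depth was greater in each Ngfr KO library than in any WT library. The targeted gene Ngfr had values of 0.377, 0.677, 1.30 and 1.14 in WT replicates 1 to 4 and of 0.305, 0.353 and 0.184 in Ngfr KO replicates 1 to 3, which did not overlap, although reads were present in every Ngfr KO sample. Across the table, limma tested 8326 genes and called 34.2% of them at a Benjamini-Hochberg adjusted p-value under 0.05, 18.3% higher and 15.8% lower in Ngfr KO, and 40.9% of them had groups that did not overlap. The median log2 change of all genes tested was 0.02. With a share of this size changed, a call on a single gene is common in these data. The labels do not state that the samples of a group came from separate cohorts, so p-values measure the spread between these pools.

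Csn2 (ENSMUSG00000063157) sits in the casein gene cluster of chromosome 5, at 87692624 to 87699630 on the minus strand (GRCm38, GENCODE M21). The bases just before its start are shown because STAT5 acts on milk genes through such sites, and those of its neighbour Csn1s1 are shown for comparison. Sequences are from RefSeq on GRCm38.p6, 250 bases before the start, written 5′ to 3′ along the gene's strand, chr5:87699426-87699675 for Csn2 (minus strand) and chr5:87665958-87666207 for Csn1s1 (plus strand). Capitals mark matches to TTCNNNGAA, the palindrome that STAT5 recognises, or to TTCNNNNGAA, the form with a spacer longer by a base; both strands were searched and no matches overlap.
Csn2: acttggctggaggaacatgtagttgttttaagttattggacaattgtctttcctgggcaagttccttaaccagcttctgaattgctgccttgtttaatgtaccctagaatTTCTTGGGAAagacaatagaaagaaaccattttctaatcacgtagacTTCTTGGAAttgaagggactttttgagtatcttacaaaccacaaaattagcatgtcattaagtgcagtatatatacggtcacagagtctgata
Csn1s1: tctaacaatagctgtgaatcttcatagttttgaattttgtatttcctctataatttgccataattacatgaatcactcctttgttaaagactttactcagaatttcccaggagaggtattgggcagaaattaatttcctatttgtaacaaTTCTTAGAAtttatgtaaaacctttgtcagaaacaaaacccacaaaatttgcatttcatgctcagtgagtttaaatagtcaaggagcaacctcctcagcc
Csn2 held TTCTTGGAA at -93 to -85 and TTCTTGGGAA at -140 to -131, counted from the start, and Csn1s1 held TTCTTAGAA at -100 to -92. Of 32851 promoter windows of this length, 7.02% held TTCNNNGAA, 5.85% held TTCNNNNGAA and 0.469% held both. Among the 9 members with a promoter entry, which have 14 start sites in all, 3 start sites held TTCNNNGAA: those of Csn2 and Csn1s1 and 1 of the 3 of Prlr. The window of Wap held neither form, nor did that of Cish, a gene that STAT5 induces, which was searched beside the members. A longer GENCODE transcript of Csn2 begins inside the window printed. These letters are a description of the sequence and were not measured as bound.

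Csn2 was the member with a large difference between genotypes. WT replicates 1 to 4 gave 33, 202, 123 and 197 reads of Csn2, and Ngfr KO replicates 1 to 3 gave 3319, 9216 and 4388. As normalised values these were 0.128, 0.756, 0.535 and 0.751 in WT and 12.0, 31.3 and 17.6 in Ngfr KO. The groups lay far apart: the lowest Ngfr KO sample was above the highest WT sample, and WT replicate 1 lay below the other WT samples. WT had a mean of 0.543 ± 0.295 (SD, n = 4) and Ngfr KO had a mean of 20.3 ± 9.9 (SD, n = 3), a ratio of 37.4. On the log2(value + 1) scale the change was 3.71 (SE 0.27), the largest of the 8326 genes tested, and this value is what brought the gene forward. The scale matters for a gene this low in WT: it was 5.05 (SE 0.45) with a pseudocount of 0.1 and 5.30 by edgeR on recovered reads, where 21 other genes of 16751 had a larger one. Csn2 passed the filter through its Ngfr KO samples alone. Of the 3 members past the filter, Csn2 was called, against 34.2% of all genes tested, from which nothing is read because this contrast chose the gene.

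Levels of different genes were compared per kb of the longest APPRIS principal transcript, GENCODE's main protein-coding form. On this scale, Csn2 stood above 31.1% of 15306 protein-coding genes in WT replicate 1 and above 57.9% to 64.9% in the other WT samples. In Ngfr KO replicates 1, 2 and 3 it stood above 95.1%, 98.2% and 96.2% of them. A gene of low or middle rank in the WT samples thus ranked near the top in every Ngfr KO sample.

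**Figure D1:**
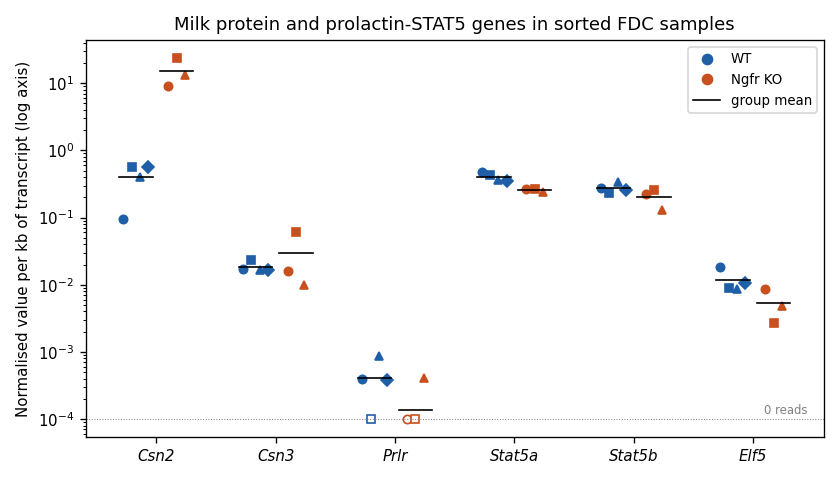
Normalised value per kb of transcript (log axis) of the 6 members in the table, 1 point per sample, with WT in blue and Ngfr KO in orange; marker shapes stand for replicate numbers, black lines for group means, and open markers on the dotted line for samples with 0 reads. Csn2 is the member whose Ngfr KO samples (12.0 to 31.3 before division by length) all lie above WT, and Stat5a is the member whose Ngfr KO samples all lie below WT.

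The kappa-casein gene Csn3 (ENSMUSG00000001622), whose product stabilises casein micelles, lies 226 kb from Csn2 on the same chromosome. WT samples gave 7, 10, 6 and 7 reads of it and Ngfr KO samples 7, 29 and 4. Its values were 0.0272, 0.0374, 0.0261 and 0.0267 in WT and 0.0254, 0.0984 and 0.0160 in Ngfr KO. The groups overlapped, and the highest sample was Ngfr KO replicate 2, which also had the highest Csn2. Per kb, the mean of Csn2 in Ngfr KO was 15.3 and that of Csn3 was 0.0292. Within 500 kb of Csn2 the annotation holds 46 genes, 23 of them protein coding, and Csn2 and Csn3 were the genes among them with a row in the table.

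The receptor that starts the pathway in the mammary gland was at the limit of detection. Prlr (ENSMUSG00000005268) had 1, 0, 2 and 1 reads in WT and 0, 0 and 1 in Ngfr KO, 5 reads in all 7 libraries. Each of these counts is at or under 3 reads, the number that a count of 0 allows, which corresponded to values of 0.0102 to 0.0130. A difference in Prlr was not detectable at this depth, and its measured value was under this floor in every sample. The floor does not bound the true level in samples with 1 or 2 reads. Intervals and floors of this kind cover counting error only.

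Stat5a (ENSMUSG00000004043) and Stat5b (ENSMUSG00000020919), neighbours on chromosome 11, encode the transcription factors that act on milk genes. Stat5a had values of 1.84, 1.66, 1.39 and 1.37 in WT and of 1.03, 1.04 and 0.945 in Ngfr KO. Every Ngfr KO sample was below every WT sample, and the means were 1.57 ± 0.23 (SD, n = 4) and 1.01 ± 0.05 (SD, n = 3), a log2 change of -0.35 (SE 0.14). Stat5b had values of 1.45, 1.22, 1.78 and 1.35 in WT and of 1.15, 1.34 and 0.681 in Ngfr KO, so its groups overlapped, with a log2 change of -0.26 (SE 0.16). Neither was called. The genes are near-identical paralogs, and reads in shared sequence could have been split between them by the counting. Their sum, which does not depend on that split, was 3.29, 2.88, 3.17 and 2.72 in WT and 2.18, 2.38 and 1.63 in Ngfr KO, with no overlap. Neither gene, nor their sum, had a higher mean in Ngfr KO. Separation in this direction, seen for Stat5a and the sum, was present in 18.3% of all genes tested. Phosphorylation of the STAT5 proteins was not measured, and the part of STAT5 in the Csn2 difference was not tested.

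Elf5 (ENSMUSG00000027186), the alveolar transcription factor, had 12, 6, 5 and 7 reads in WT samples against 6, 2 and 3 in Ngfr KO samples. Its mean values were 0.0294 ± 0.0117 (WT, SD, n = 4) and 0.0135 ± 0.0076 (Ngfr KO, SD, n = 3), and the groups overlapped. Per kb, the order of the members' mean levels was Csn2 (0.408), Stat5a (0.403), Stat5b (0.278), Csn3 (0.0184), Elf5 (0.0116) and Prlr (0.000414) in WT. In Ngfr KO it was Csn2 (15.3), Stat5a (0.259), Stat5b (0.203), Csn3 (0.0292), Elf5 (0.00534) and Prlr (0.000135). In WT the samples of Csn2 spanned those of Stat5a and Stat5b, and Csn3 overlapped with Elf5. In Ngfr KO Stat5a overlapped with Stat5b, and the other neighbours in the order were separate. These orders carry no test.

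The summed FDC markers were higher in every Ngfr KO sample than in every WT sample, as Csn2 was. The 20 FDC markers of the list, all in the table, summed to 1872 in WT replicate 1, to 4065 to 5229 in the other WT samples and to 8194 to 10731 in Ngfr KO. Of these markers, limma called 17 higher and none lower, against 18.3% and 15.8% of all genes tested. That FDC markers were higher in Ngfr KO was known from an earlier description of these data. Among the 17 was Cr2, which encodes complement receptors. Its values were 26.5 to 76.6 in WT against 95.5 to 111 in Ngfr KO. Each of the 20 had at least 91 reads (Tnfsf11, WT replicate 3) in every library. WT replicate 1 had the lowest FDC sum and the lowest Csn2. In bulk samples, more cells of a type and more RNA per cell cannot be told apart.

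Csn2 was also set against the FDC markers. Per 1000 units of summed FDC marker value, Csn2 was 0.0686, 0.186, 0.124 and 0.144 in WT replicates 1 to 4 and 1.47, 3.44 and 1.64 in Ngfr KO replicates 1 to 3. The groups did not overlap, and the ratio of means was 16.7, against a ratio of 2.41 for the FDC sum itself. With Cr2 alone as the denominator the ratio was 19.3, and without the 3 most abundant markers (Cxcl13, Clu and Mfge8) it was 12.7. Leaving out 1 library at a time gave 11.9 to 19.4. The 3 denominators themselves had ratios of 2.01 to 3.06. The part of FDC content in the Csn2 difference was not tested. Beside Mfge8, the milk fat globule protein gene that FDCs also express, Csn2 amounted to 1.83, 3.21, 1.30 and 1.67 per 1000 in WT and to 10.3, 15.6 and 14.9 in Ngfr KO.

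**Figure D2:**
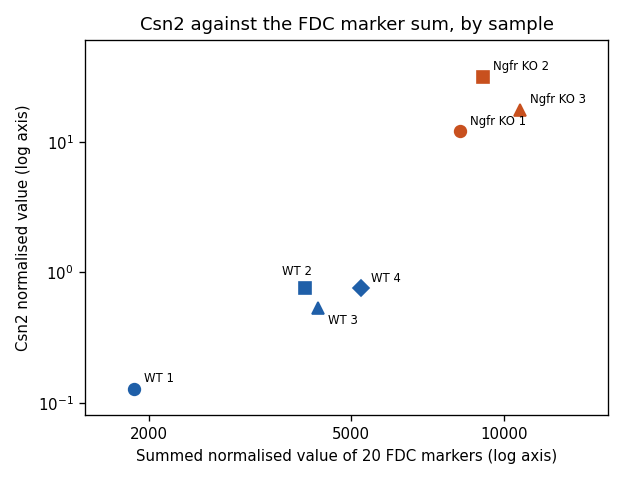
Csn2 normalised value against the summed normalised value of 20 FDC markers (both log axes), 1 point per sample, labelled by group and replicate. The Ngfr KO samples have FDC sums of 8194 to 10731 and Csn2 values of 12.0 to 31.3, and the WT samples lie lower on both axes, with WT replicate 1 lowest.

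Other marker lists were read the same way, beside the 18.3% of all genes tested that limma called higher and the 15.8% called lower. The 14 endothelial markers had sums of 151 to 258 (WT) against 44.3 to 80.9 (Ngfr KO), and limma called 13 of 13 tested lower. The reticular stroma list summed to 108 to 257 and 312 to 422, with 5 of 10 tested called higher, of which Bst1 is also on the FDC list. The B-cell list summed to 21.8 to 34.3 and 17.6 to 52.9, with Ms4a1 called higher of 7 tested, and edgeR called none of 12, with 1 at an unadjusted p under 0.05. Of 5 T-cell markers tested, none was called or had an unadjusted p under 0.05 by limma, and edgeR found the same for 9; their sums were 5.38 to 12.5 and 3.71 to 11.6. The myeloid list summed to 5.68 to 19.3 and 10.4 to 41.9, with Lyz2 and Cd14 called higher and Mrc1 lower of 3 tested. The part of these cell types in the Csn2 difference was not tested.

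Milk proteins are made by epithelial cells, so epithelial markers were examined. Of 20 listed, 8 had a row and 1, Epcam, passed the filter. The 12 without a row, among them Krt8, Krt18, Krt19 and Cdh1, could not be read here, and why they have none is not known. Epcam, the epithelial adhesion molecule, had values of 0.650, 3.23, 11.0 and 2.73 in WT and of 15.2, 24.9 and 19.1 in Ngfr KO. It rose by 2.28 (SE 0.48, limma adjusted p = 0.00432), while edgeR gave an adjusted p of 0.0501. The other 7, among them the basal keratin gene Krt14 and the keratin gene Krt7, had sums between 0.484 and 0.794 (WT) and between 0.268 and 0.400 (Ngfr KO), and Krt14 had 0 reads in 3 of the 4 WT samples and no more than 16 elsewhere. Apart from Epcam, the epithelial markers with a row were thus low in both genotypes, with at most 132 reads of a gene in a sample. Their sums were lower in Ngfr KO, without overlap, while Epcam rose. The part of Epcam-expressing cells in the Csn2 difference was not tested.

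The list of cytokine receptors and JAK kinases held 22 genes, of which 11 were tested; limma called 2 higher and 4 lower. Over all genes tested 18.3% were called higher and 15.8% lower. The median log2 change was -0.30 in the list and 0.02 over all genes. Jak2, the kinase of the prolactin receptor, was not called, with values of 2.99, 2.72, 2.01 and 1.45 in WT and 1.47, 1.72 and 1.71 in Ngfr KO (log2 change -0.30, SE 0.18, limma adjusted p = 0.212). Ghr, the growth hormone receptor gene, which also signals through JAK2 and STAT5, was not called either (-0.29, SE 0.17, limma adjusted p = 0.198). Jak2 and Ghr both had overlapping groups. Epor, the erythropoietin receptor gene, fell from 1.39 ± 0.28 (SD, n = 4) to 0.550 ± 0.136 (SD, n = 3), by 0.62 on the log2 scale (SE 0.15). Epor passed the filter through its WT samples alone, and fitted with no filter its limma adjusted p was 0.0387. Egfr, the epidermal growth factor receptor gene, rose from 0.972 ± 0.197 to 2.39 ± 0.44, by 0.78 (SE 0.15, limma adjusted p = 0.00319). Epor and Egfr kept their calls in all 15 alternative analyses that tested them. Il15ra, whose product presents interleukin 15, rose by 0.70 (SE 0.19, limma adjusted p = 0.0143); without Ngfr KO replicate 1 the change was 0.53 and was not called (0.0798). Jak1 (log2 change -0.74), Jak3 (-0.51) and Csf2rb2 (-0.79), a beta chain gene of cytokine receptors, were called lower by limma and not by edgeR, whose adjusted p-values were 0.0539 to 0.0696. Jak1 and Csf2rb2 also lost the call without WT replicate 1 or 2 or Ngfr KO replicate 1 or 2 (limma adjusted p = 0.0616 to 0.107), and Jak3 without Ngfr KO replicate 1 (0.0803) or 3 (0.0625). Csf2rb2 has a near-identical copy, Csf2rb, so its count is uncertain. Without Ngfr KO replicate 1, 3 genes of the list were called, and edgeR called 3 of 18.

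The list of negative regulators of the pathway held 22 names, of which Lnk is an older name of Sh2b3, and 17 genes were tested; limma called 4 higher and 4 lower (median log2 change -0.06), where 18.3% and 15.8% of all genes tested were called. The phosphatase genes Ptpn1 and Ptpn2, whose products dephosphorylate JAKs and STATs, rose. Ptpn1 ranged from 3.82 to 6.31 in WT and was 9.10, 12.0 and 10.2 in Ngfr KO. Ptpn2 was 4.86, 5.34, 5.91 and 4.98 in WT and 9.92, 9.22 and 10.9 in Ngfr KO. In neither gene did the groups overlap. Their log2 changes were 0.89 (SE 0.19, limma adjusted p = 0.00414) and 0.81 (SE 0.15, limma adjusted p = 0.00237), and both kept the call in all 15 alternatives that tested them. Ptpn6, a phosphatase gene of blood cells, and Pias1, of the protein inhibitors of activated STAT, were called higher by 0.69 and 0.52. Socs3, a feedback inhibitor induced by STAT proteins, had values of 8.00, 4.49, 9.28 and 5.50 in WT and 2.16, 2.70 and 5.47 in Ngfr KO. Its groups overlapped, and the log2 change of -0.84 (SE 0.27, limma adjusted p = 0.0302) was not called by edgeR (0.0906). The adaptor gene Sh2b3, Pias2 and the phosphatase gene Dusp3 had log2 changes of -0.76, -0.48 and -0.46 and were called lower by limma. These 6 calls were not stable to leaving out a library. Without Ngfr KO replicate 1 or 2, none of the 6 was called (limma adjusted p = 0.0522 to 0.137), which left Ptpn1 and Ptpn2. The 6 changes kept their directions there, and fewer samples were in the fit. Over all genes, calls also went from 2844 to 1803 without Ngfr KO replicate 1 and to 1614 without Ngfr KO replicate 2. Without WT replicate 1 or 3, 4 genes of the list were called, without WT replicate 2, 5 were, and edgeR called 5 of 21.

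Cish, a feedback inhibitor gene that STAT5 induces directly, did not pass the filter. Its values were 0.627, 0.655, 1.03 and 0.400 in WT and 0.693, 0.604 and 0.248 in Ngfr KO, which overlapped (edgeR log2 change -0.31, adjusted p = 0.690). Socs2, another feedback inhibitor induced by STAT5, had values of 9.09, 7.94, 9.14 and 7.66 in WT and lay between 5.50 and 7.2 in Ngfr KO. Every Ngfr KO sample was below every WT sample, but the difference of -0.32 (SE 0.16) was not called (limma adjusted p = 0.136). Socs1 was not called (log2 change 0.34, SE 0.25, limma adjusted p = 0.319).

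The wider list of 25 STAT5 target genes had 18 tested, with 4 called higher, 3 lower and a median log2 change of -0.13. The share called is near the 34.2% of all genes tested, so the count is no result about these targets. Tnfsf11, the gene of RANKL, which prolactin induces in the mammary gland and which FDCs make, rose from 0.802 ± 0.660 to 3.43 ± 0.73 (log2 change 1.35, SE 0.23, limma adjusted p = 0.00165); it is also on the FDC list. Igfals, which encodes a serum partner of IGF1, rose by 1.02 (SE 0.23, limma adjusted p = 0.00657). Id1, an inhibitor of helix-loop-helix factors, rose by 1.14, and Ccnd2, a cyclin gene, by 0.64. Without Ngfr KO replicate 2 the change of Ccnd2 was 0.59 and was not called (limma adjusted p = 0.0646). Without the filter on low values the changes of Id1 and Ccnd2 were the same and neither was called (0.0605 and 0.0543). Igf1 had values of 29.6, 24.4, 26.7 and 19.4 in WT and of 9.39, 9.02 and 10.1 in Ngfr KO. Every Ngfr KO sample was below every WT sample, and Igf1 fell by 1.29 (SE 0.18, limma adjusted p = 0.000636). Mcl1, a survival gene, also had separate groups and fell by 1.14 (SE 0.19, limma adjusted p = 0.00152). Socs3, given above, is the other target called lower. Tnfsf11, Igfals, Igf1 and Mcl1 kept their calls in every alternative that tested them. Bcl2l1, the gene of BCL-XL, was not called (log2 change -0.27, SE 0.15, limma adjusted p = 0.168).

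**Figure D3:**
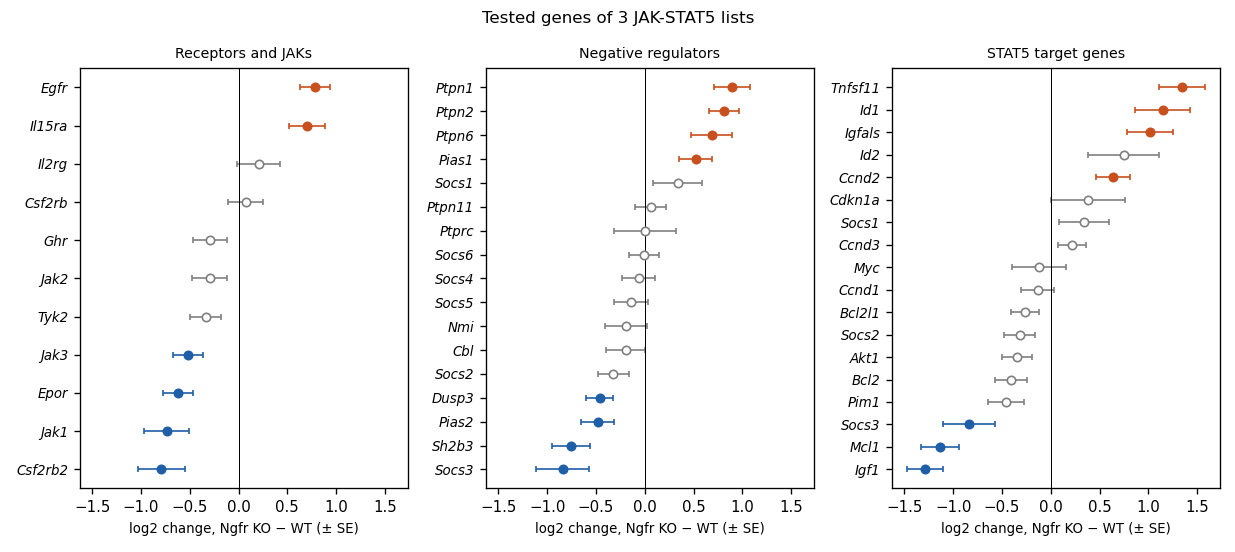
log2 change between Ngfr KO and WT with its SE for the tested genes of 3 lists (receptors and JAKs, negative regulators, STAT5 targets), on the log2(value + 1) scale; filled orange and blue points were called higher and lower by limma, open points were not called. Each list holds calls in both directions, from Igf1 at -1.29 to Tnfsf11 at 1.35.

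Of the 22 factors acting with STAT5 on milk promoters that are reported here, 11 were tested, and limma called 5 lower (median log2 change -0.43), against 15.8% of all genes tested. Nr3c1, the glucocorticoid receptor gene, had values of 12.6, 9.27, 9.62 and 7.64 in WT and of 6.11, 5.89 and 4.98 in Ngfr KO (log2 change -0.68, SE 0.18, limma adjusted p = 0.0137). The NFI family genes Nfib and Nfia fell by 0.76 (SE 0.19, limma adjusted p = 0.00896) and 0.87 (SE 0.17, limma adjusted p = 0.00338). Cebpd, of the C/EBP family, fell from 15.8 ± 6.7 to 6.17 ± 1.02 (log2 change -1.17, SE 0.25, limma adjusted p = 0.00461). Yy1, described as a repressor at the Csn2 promoter, fell from 5.47 ± 0.53 to 2.77 ± 0.36 (log2 change -0.78, SE 0.15, limma adjusted p = 0.00285). In these 5 genes every Ngfr KO sample was below every WT sample, which held for 18.3% of all genes tested. Stat3, another STAT family gene, was not called (log2 change 0.04, SE 0.15, limma adjusted p = 0.854). The 5 called genes kept their calls in every alternative that tested them.

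Of 29 other genes of milk and mammary secretion, 18 had a row and 13 were tested; limma called 6 higher and 1 lower (median log2 change 0.88), against 18.3% and 15.8% of all genes tested. By edgeR 7 of 18 were called, all higher, against 15.2% of all genes it tested in either direction. Among the 7 was Atp2b2, which passed edgeR's filter through its Ngfr KO samples alone. Mfge8 rose from 292 ± 175 to 1453 ± 481 (log2 change 2.57, SE 0.54, limma adjusted p = 0.00446); without a filter the change was the same and the adjusted p was 0.0649. Pthlh, the gene of a calcium-mobilising hormone made by the lactating gland, rose from 28.9 ± 13.5 to 121 ± 17 (log2 change 2.17, SE 0.36, limma adjusted p = 0.00134). Both genes are FDC markers as well, so their rise is counted in both lists. Plin2, which coats milk lipid droplets, had values of 6.32, 9.45, 14.3 and 12.5 in WT and of 21.0, 29.7 and 19.5 in Ngfr KO (log2 change 1.10, SE 0.25, limma adjusted p = 0.00679). Muc15, a mucin of the milk fat globule membrane, had values of 0.0662, 0.618, 0.230 and 0.355 in WT and of 1.82, 2.88 and 1.54 in Ngfr KO. In both genes the groups were separate, and WT replicate 1 was the lowest sample. Muc15, like Csn2, passed the filter through its Ngfr KO samples alone and so had to differ among the genes tested; fitted with no filter, its log2 change was 1.22 (limma adjusted p = 0.0159). Parm1 rose by 0.88; without Ngfr KO replicate 2 the change was 0.82 and was not called (limma adjusted p = 0.06). Acsl4, a fatty acid CoA ligase gene, rose by 0.50; without WT replicate 1, 2 or 4 or Ngfr KO replicate 2 or 3 the change was 0.40 to 0.49 and was not called (limma adjusted p = 0.0581 to 0.0935).

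B4galt1, which encodes the galactosyltransferase that pairs with alpha-lactalbumin to make lactose, had values of 1.92, 1.51, 1.64 and 1.58 in WT and of 0.914 to 1.00 in Ngfr KO. It fell by 0.44 (SE 0.14, limma adjusted p = 0.0253), while edgeR gave 0.0511, and limma gave 0.0686 to 0.0911 without WT replicate 1 or Ngfr KO replicate 1 or 2. The WT samples of B4galt1 were enough to pass the filter, and fitted with no filter it was not called (limma adjusted p = 0.0501). Glycam1, a mucin of milk and of high endothelial venules, was not called: its values were 162, 90.2, 135 and 213 in WT and 343, 117 and 611 in Ngfr KO (log2 change 1.02, SE 0.47, limma adjusted p = 0.107). Without Ngfr KO replicate 2 it was called (limma adjusted p = 0.0103). Lcn2 also had overlapping groups and was not called (log2 change 1.07, SE 0.60, limma adjusted p = 0.180). Fasn and Xdh, which act in milk fat synthesis and secretion, were not called, with log2 changes of 0.18 and -0.22.

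**Figure D4:**
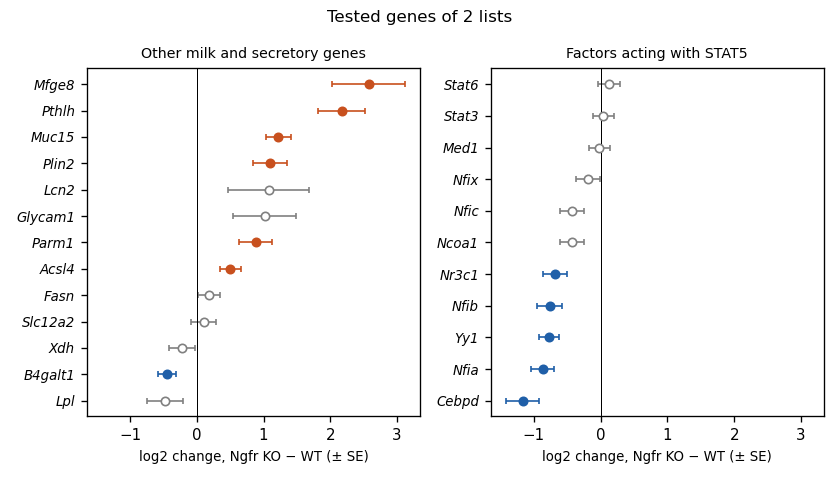
log2 change between Ngfr KO and WT with its SE for the tested genes of 2 lists (other milk and secretory genes, and factors that act with STAT5), on the log2(value + 1) scale; filled orange and blue points were called higher and lower by limma, open points were not called. Milk genes run from Lpl below 0 to Mfge8 at 2.57, and the 5 factors called lower reach down to Cebpd at -1.17.

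The genes whose log2(value + 1) followed Csn2 most closely over the 7 samples were Irf5, Dpm2, Pla1a, Mrpl3 and Cd40, with Pearson correlations of 0.997, 0.996, 0.996, 0.993 and 0.992. Irf5 and Cd40 encode an interferon regulatory factor and a costimulatory receptor. All 5 had their highest value in Ngfr KO replicate 2, as Csn2 did, which is no separate result because likeness to Csn2 picked them. Pla1a, a phospholipase gene, had 0.0973, 0.494, 0.509 and 0.435 in WT and 2.73, 5.55 and 4.27 in Ngfr KO. Irf5 and Pla1a were below 1 in every WT sample and so passed the filter through their Ngfr KO samples alone. The points fall into the 2 genotypes, and within a genotype there are too few samples for a correlation. Of 8325 genes compared, 264 (3.17%) reached a correlation of 0.95.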

How the data were processed

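RNA of FDCs sorted from popliteal lymph nodes was measured in 7 samples, 4 WT and 3 Ngfr KO; groups and replicate numbers come from the titles. Amplification of cDNA used SMART-Seq v4 and library making Nextera XT, per the labels' protocols, and neither keeps strand. The submitters' processing notes name bcl2fastq 2.20.0.422 and the mm10 build; the aligner, counter and annotation are not given in the sources used here. The deposited table holds a normalised signal per gene, named TMM (trimmed mean of M values) by the authors, with no gene length divided out. In each sample 100% of its values fell on whole multiples of the value of 1 read (tolerance 0.01), which recovered the reads, 17244925 to 21538400 per library. Every gene listed had at least 3 reads over the samples. Of 21176 identifiers, 21137 matched GENCODE M21 (GRCm38, the build of mm10).

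Ngfr KO was compared with WT by limma 3.58.1 in R 4.3.3 (lmFit, eBayes, trend fitted) on the log2(value + 1) scale and no covariates, for the 8326 genes that reached a value of 1 in 3 or more samples. P-values were adjusted by Benjamini-Hochberg over those genes and called under 0.05. Fold changes on this scale understate the change of low genes. Lists are described by counts and medians; 1 gene of the list of factors is not reported here and is left out of its counts. The members and lists were chosen with earlier results of these data known. Named genes are the members, the called genes of each list of the pathway, those near Csn2 with a row and the 5 most like Csn2; further names from the lists were picked with their values in view.

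Each count was repeated with a pseudocount of 0.1 or 5, with no filter or with a value of 10 required, with quantile or median ratio normalization, with robust eBayes lacking the trend, with a replicate block, without each library, and by edgeR 4.0.16 (quasi-likelihood, filterByExpr) on recovered reads. The fits were also run on simulated data with known changes. Far fewer genes were changed there than were called here, so those runs do not measure the error rate in these data.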

Additional observations from a re-analysis of the deposited data

Results flagged for a closer look

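In 52 results the spread of the 4 WT samples was examined, and in 3 of them the highest or lowest sample stood apart from the others by Dixon's criterion, where chance gives about 2.6. Csn3 was 0.0374 in WT replicate 2 (10 reads), against 0.0261 to 0.0272 in the other WT samples. Ccnd2 was 1.72 in WT replicate 1, against 3.02 to 3.23 in the others. Cebpd was 25.9 in WT replicate 3, against 11.7 to 13.5 in the others.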

How the results depend on the processing

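Of all genes tested, 2844 were called, 535 where a value of 10 was required, and 1614 to 3006 with 1 library left out; without WT replicate 1 it was 1870, without Ngfr KO replicate 1 it was 1803 and without Ngfr KO replicate 2 it was 1614. Without a filter, 3 receptors and JAKs, 3 negative regulators, 4 targets and 3 other milk genes were called. With a value of 10 required, 2 of 4 receptors and JAKs, 0 of 0 negative regulators, 1 of 3 targets, 2 of 2 factors and 4 of 5 other milk genes were called; fewer genes were tested there. By edgeR 3 receptors and JAKs, 5 negative regulators and 0 epithelial markers were called. Leaving out 1 library at a time gave 3 to 6 receptors and JAKs, 2 to 8 negative regulators, 6 to 9 targets, 5 to 6 factors, 5 to 7 other milk genes, 1 epithelial marker, and 0 to 1 genes near Csn2, the 0 where a missing Ngfr KO library left Csn2 under the filter. The log2 change of Csn2 was 5.05 with a pseudocount of 0.1, 2.12 with 5, 5.30 by edgeR and 3.36 to 4.01 with 1 library left out. The cause of these shifts was not tested beyond the numbers of genes given. Of 578 values of 38 listed genes under the alternatives, 502 kept direction and call, 73 lost the call, 3 gained it and none reversed.

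The labels link same-numbered WT and Ngfr KO samples by nothing beyond the number. Their deviations from the group means correlated at 0.298, -0.0593 and -0.0108 for numbers 1, 2 and 3, which cannot settle whether they were paired. With the replicate block, which leaves WT replicate 4 without a partner and so out of the contrast, 2717 genes were called, with 5 receptors and JAKs, 8 negative regulators, 8 targets, 6 factors and 9 other milk genes, and Csn2 had a log2 change of 3.78; Acsl4 (limma adjusted p = 0.0509) and Jak3 (0.0645) lost the call and Glycam1 gained it (0.0229). Depth limits Prlr, Elf5 and Csn3, which had at most 29 reads in a sample.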

Other observations

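Some listed genes lay under the filter and were measured by edgeR on the recovered reads alone; they were singled out after their values were seen. Cebpb, the C/EBP factor best known for its role in alveolar differentiation, had values of 0.841, 0.756, 0.843 and 0.797 in WT and of 0.218, 0.173 and 0.496 in Ngfr KO. Every Ngfr KO sample was lower than the WT samples, and the edgeR log2 change was -1.41 (adjusted p = 0.0434). Atp2b2, which encodes the calcium pump that carries calcium into milk, had values of 0.00389, 0.0337, 0.00435 and 0 in WT and of 0.134, 0.353 and 0.0681 in Ngfr KO. Its edgeR log2 change was 4.17 (adjusted p = 0.0498), with at most 104 reads in a sample. Atp2b2 passed edgeR's filter through its Ngfr KO samples alone and so had to differ among the genes tested. By edgeR, 15.2% of 16751 genes were called. Esr1, the oestrogen receptor gene, was lower in every Ngfr KO sample than in every WT sample and was not called by edgeR (log2 change -1.50, adjusted p = 0.0734).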
